A study of Mus musculus with 6 samples.

Results

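The genes described here are 32 genes of the mitotic cell cycle and of DNA replication, chosen by name from the 21898 genes of the count table. They comprise 18 genes of mitosis (Mki67, Top2a, Ccna2, Ccnb1, Ccnb2, Cdk1, Cdc20, Bub1, Bub1b, Aurka, Aurkb, Plk1, Cenpe, Cenpf, Kif11, Ube2c, Birc5 and Tpx2) and 14 genes of S phase and the step that precedes it (Ccne1, Ccne2, E2f1, Mcm2 to Mcm7, Pcna, Cdc6, Cdt1, Rrm2 and Tyms). Each name matched 1 row, and each of the 32 genes had enough counts to be tested. RNA was sequenced from wild-type mouse fetal ovaries taken at 14.5 days post coitum (dpc) and kept in serum-free DMEM/F12 for 3 days. The 3 libraries of the NAPQI group came from ovaries cultured with NAPQI (N-acetyl-p-benzoquinone imine) at 15 µM, a reactive product of acetaminophen metabolism. The 3 control libraries came from ovaries cultured with an equal volume of ethyl acetate, the solvent. The labels do not say that replicates came from separate litters or separate cultures. The p-values therefore describe variation among these 6 libraries, and this variation may be technical.

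A dividing cell first licenses its replication origins, when CDC6 and CDT1 load the MCM2 to MCM7 ring onto DNA. Cyclin E and the transcription factor E2F1 then drive entry into S phase, in which PCNA clamps the polymerase to its template while RRM2 and TYMS supply deoxynucleotides. Mitosis follows once CDK1 is active with cyclin A2 or B, and it ends when the anaphase-promoting complex, with CDC20 and the ubiquitin-conjugating enzyme UBE2C, marks cyclin B for destruction. In the fetal ovary of this age germ cells have largely left mitotic division for meiotic prophase, while somatic cells such as pregranulosa cells, stroma and surface epithelium still include dividing ones. The RNA came from whole ovaries, so fewer dividing cells and less RNA per cell cannot be told apart.

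The mitotic and the S phase genes differ in their promoters, and the sequences are shown because this is a property that does not depend on the treatment. RefSeq windows of GRCm38.p6, from 250 bases before to 50 bases after a gene's start, were found for 27 of the 32 genes, all but Aurkb, Ccna2, Ccne2, Mcm4 and Tpx2. Both strands were searched for the cell cycle genes homology region (CHR, letters TTTGAA), for the CCAAT box that the factor NF-Y binds, and for 3 forms of the E2F site. The first form was TTGGCGC. The second form searched was TTCGCGC. The remaining form was TTCCCGC. The CHR is the element through which the MuvB complexes are known to hold back mitotic genes until G2. The capitals below mark these motifs, and forms of the E2F site can overlap each other on opposite strands. All 5 windows lie on the minus strand, at chr10:69352863-69353162 for Cdk1, chr9:70421505-70421804 for Ccnb2, chr1:128359656-128359955 for Mcm6, chr5:138171834-138172133 for Mcm7 and chr5:30073576-30073875 for Tyms.
Cdk1: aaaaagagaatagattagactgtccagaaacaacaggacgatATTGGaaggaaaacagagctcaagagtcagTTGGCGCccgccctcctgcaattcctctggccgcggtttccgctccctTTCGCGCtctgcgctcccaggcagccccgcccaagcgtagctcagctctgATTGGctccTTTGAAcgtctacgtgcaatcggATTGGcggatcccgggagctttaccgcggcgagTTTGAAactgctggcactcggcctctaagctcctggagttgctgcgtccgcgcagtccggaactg
Ccnb2: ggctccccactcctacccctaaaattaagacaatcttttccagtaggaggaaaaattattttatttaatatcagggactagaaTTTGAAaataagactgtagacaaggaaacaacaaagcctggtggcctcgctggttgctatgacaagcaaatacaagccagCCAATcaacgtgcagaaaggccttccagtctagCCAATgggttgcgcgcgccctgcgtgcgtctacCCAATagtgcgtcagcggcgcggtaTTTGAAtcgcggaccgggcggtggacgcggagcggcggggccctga
Mcm6: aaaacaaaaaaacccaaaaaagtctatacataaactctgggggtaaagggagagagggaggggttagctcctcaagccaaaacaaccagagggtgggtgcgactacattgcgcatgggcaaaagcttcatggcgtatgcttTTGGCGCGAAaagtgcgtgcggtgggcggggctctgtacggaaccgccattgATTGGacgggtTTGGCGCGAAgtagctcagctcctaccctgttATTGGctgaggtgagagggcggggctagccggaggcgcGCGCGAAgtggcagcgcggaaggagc
Mcm7: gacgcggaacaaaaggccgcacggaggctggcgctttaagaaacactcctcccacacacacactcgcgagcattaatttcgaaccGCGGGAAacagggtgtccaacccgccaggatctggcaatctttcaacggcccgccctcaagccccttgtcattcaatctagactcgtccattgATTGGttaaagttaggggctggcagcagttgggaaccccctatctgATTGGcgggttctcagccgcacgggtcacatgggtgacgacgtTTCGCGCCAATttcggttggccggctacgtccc
Tyms: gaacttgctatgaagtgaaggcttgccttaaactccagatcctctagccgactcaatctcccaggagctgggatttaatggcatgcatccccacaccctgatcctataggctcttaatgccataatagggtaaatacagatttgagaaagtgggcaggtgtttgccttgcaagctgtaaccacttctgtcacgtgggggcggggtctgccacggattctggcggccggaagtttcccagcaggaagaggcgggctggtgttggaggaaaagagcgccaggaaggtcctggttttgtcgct

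Cdk1 and Ccnb2 were chosen as mitotic genes with a CHR beside the start, Mcm6 as a licensing gene with E2F sites, and Mcm7 and Tyms as the genes with the smallest p below. In the Cdk1 window the CHR begins at positions -71 and -15 relative to the start, and in that of Ccnb2 at -167 and 5. In Mcm6 the E2F forms begin at -109, -106, -46, -43 and 25. In Mcm7, 4 bases of an E2F form belong also to a CCAAT box. A second RefSeq window of Mcm7, not shown, also holds an E2F form and a CCAAT box. None of the motifs is in the Tyms window, which says only that these letters are not in it.

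A CHR was found for 11 of 15 mitotic genes with a window, against 1 of 12 S phase genes, Mcm2. The share over all tested genes with a window was 14.3%, and over all genes with one 20.2%. All 11 mitotic genes also had a CCAAT box in the window that held the CHR, which 5.81% of tested genes had. A CCAAT box was present for 14 of 15 mitotic genes and 7 of 12 S phase genes, against 42.6% of tested genes and 41.1% of all genes. The order turned round for E2F, with 3 of 15 mitotic genes (Mki67, Cdk1 and Ccnb1) and 6 of 12 S phase genes, against 16.2% of tested genes and 9.2% of all. The 6 were Mcm3, Mcm5, Mcm6, Mcm7, Cdc6 and Cdt1. Median G+C content was 58% in the mitotic and 61.3% in the S phase windows, against 60.3% for tested genes. These are matches of letters and were not tested for binding.

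**Figure D1:**
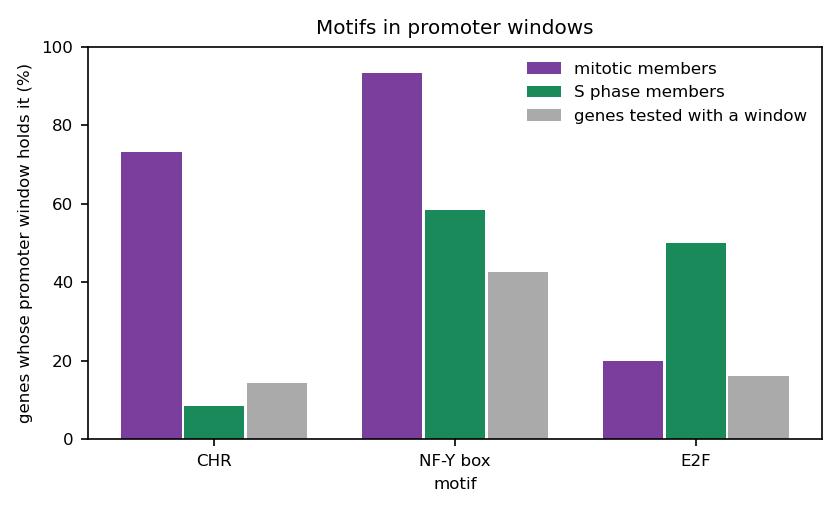
Percentage of genes whose promoter window (250 bases before to 50 after the start) holds a CHR, an NF-Y box (the CCAAT box) or an E2F form, for 15 mitotic genes, 12 S phase genes and 11624 tested genes. The CHR bar is at 73.3% for mitotic genes and 8.33% for S phase genes, and the E2F bar at 20% for mitotic genes and 50% for S phase genes.

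Levels differed widely within both groups of genes. Compared per length as deposited FPKM (counts per kilobase of gene and per 1e+06 counted reads; means over 3 libraries), the highest was Ccnb2, at 47.2 ± 5.82 FPKM with NAPQI and 45.3 ± 11.1 FPKM in controls (SD, n = 3 each). Pcna followed at 34.8 ± 1.25 FPKM with NAPQI and 36.4 ± 2.04 FPKM in controls. Next came Mcm6 with 34.1 ± 2.21 FPKM under NAPQI and 35 ± 3.18 FPKM in controls, then Mcm5 and Mcm3. Pcna, Mcm6 and Mcm5, at 31.1 ± 2.41 FPKM with NAPQI and 31.9 ± 3.32 FPKM in controls, were neighbours whose spreads met or nearly met, while Ccnb2 stood above Pcna beyond the spread of the NAPQI libraries but not of the controls. Cdc6, which loads the helicase and is destroyed as cells leave mitosis, was lowest at 1.39 ± 0.338 FPKM with NAPQI and 1.65 ± 0.547 FPKM in controls. Aurkb and Tyms were the next lowest, at 3.85 and 4.1 FPKM over the 6 libraries. The 6 MCM subunits form a ring with a single copy of each, yet their FPKM over the 6 libraries ran from 8.05 for Mcm2, whose listed length is 6956 bases, to 34.5 for Mcm6. The 32 genes had 82 to 3501 counts per gene and library.

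The main question was whether the RNA of these genes differed after culture in NAPQI, relative to solvent. No cell cycle gene passed the test: 0 of 32 had an adjusted p under 0.05 by the quasi-likelihood test of edgeR, where 0.0814% of 14736 tested genes did (0.0746% higher and 0.00679% lower), and 0 of 32 by DESeq2, where 0.509% did. The smallest edgeR adjusted p was 0.457. Log2 fold changes of NAPQI over control ran from -0.32 for Ube2c to 0.08 for Bub1, with standard errors of 0.09 to 0.27. Their 95% intervals reached from -0.85 to 0.42 at the widest, and 22 of 32 lay wholly within 0.5 of 0 on the log2 scale. At an unadjusted p under 0.05 there were 2 of 32, Mcm7 and Tyms, both lower, beside 9.24% of tested genes (4.21% higher and 5.03% lower). Without control replicate 1 there were 7 of 32, and without control replicate 2 there were 0. The 9.24% belongs to the fit of all 6 libraries, so it gives no background for the 7 and the 0. Of the 32, only Mcm7 and Tyms had NAPQI libraries that did not overlap the controls, beside 14.4% of tested genes, 7.13% lower. In sign, 28 of 32 were negative, beside 52.6% of tested genes, and the median of the 32 was -0.092 against -0.011 over all tested genes. The count varied with the library left out: 10 of 32 were negative without control replicate 2, and 23 to 31 without any other library. Control replicate 2 had the highest CPM for 27 of 32 genes. Leaving it out therefore had to raise their log2 fold changes, so the 10 cannot tell where the lean came from.

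**Figure D2:**
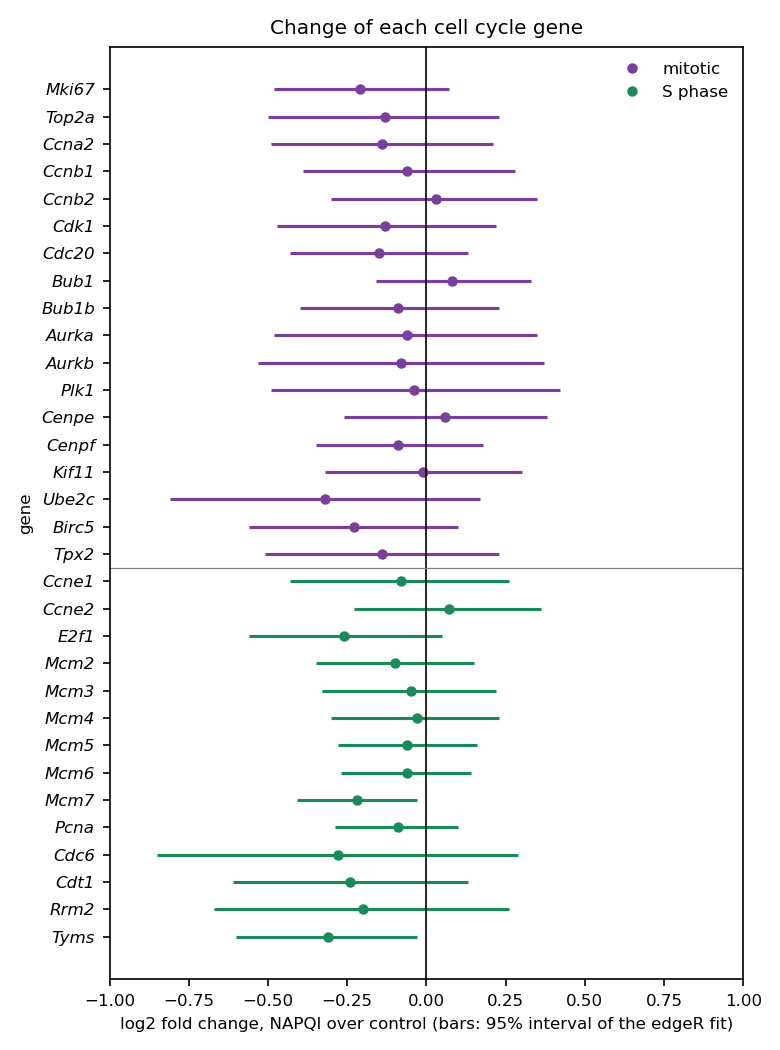
Log2 fold change of NAPQI over control for each gene (points) with its 95% interval from the edgeR fit (bars), mitotic genes in purple above and S phase genes in green below. The intervals of Mcm7 (-0.41 to -0.03) and Tyms (-0.60 to -0.03) are the 2 that do not reach 0.

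Among the S phase genes, Mcm7, a subunit of the origin licensing helicase, gave the smallest p. Mcm7 had 97.5, 86.1 and 94.2 CPM (counts per 1e+06 counted reads, scaled by TMM) with NAPQI, against 104, 110 and 110 CPM in controls. All 3 NAPQI libraries lay below all controls, by a log2 fold change of -0.22 ± 0.09 (SE; edgeR adjusted p = 0.457, 0.345 to 1 over the alternatives). In GRCm39 coordinates of the deposited table Mcm7 lies on the minus strand of chromosome 5 from 138162845 to 138170684, and it overlaps Ap4m1 by 421 bases and Cops6 by 64 bases on the plus strand. Neither neighbour passed, at -0.04 for Ap4m1 (edgeR adjusted p = 0.959) and -0.07 for Cops6 (edgeR adjusted p = 0.847). Mcm2 had 48.1, 50 and 64.3 CPM with NAPQI, against 58.4, 58.4 and 57.1 CPM in controls. Its controls lay close together and its NAPQI libraries on both sides of them (log2 fold change -0.10 ± 0.12, edgeR adjusted p = 0.814). The other subunits Mcm3, Mcm4, Mcm5 and Mcm6 had log2 fold changes of -0.05, -0.03, -0.06 and -0.06, each with overlapping groups and a standard error of 0.09 to 0.13. Whether Mcm7 differs from the rest of the ring was not tested.

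The loaders of the helicase varied more. Cdt1, which brings the MCM ring to the origin, had 29.4, 24.9 and 36.6 CPM with NAPQI, against 29.6, 44.7 and 33.1 CPM in controls (log2 fold change -0.24 ± 0.17, edgeR adjusted p = 0.67). Cdc6 had 8.07, 5.19 and 8.36 CPM with NAPQI, against 7.54, 11.9 and 6.65 CPM in controls (log2 fold change -0.28 ± 0.27, edgeR adjusted p = 0.764). For both genes control replicate 2 was highest and NAPQI replicate 2 lowest, and the groups overlapped.

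Of the genes that set S phase going, E2f1 had 37.7, 33.1 and 35 CPM with NAPQI, against 33.2, 49.3 and 44.1 CPM in controls. Control replicate 1 lay within the NAPQI range (log2 fold change -0.26 ± 0.14, edgeR adjusted p = 0.583). The cyclin E genes did not pass either, with Ccne1 at -0.08 ± 0.16 and Ccne2 at 0.07 ± 0.14. The span of Ccne2 overlaps Ints8 on the other strand by 5622 bases, and Ints8 was at 0.28 (edgeR adjusted p = 0.441).

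Pcna, the sliding clamp of the replication fork, had 79.9, 83.2 and 85 CPM with NAPQI, against 81.7, 90.6 and 92.4 CPM in controls. It was among the steadiest of the 32 genes (log2 fold change -0.09 ± 0.09, 95% interval -0.29 to 0.10, edgeR adjusted p = 0.766). Tyms, thymidylate synthase, had 22.3, 22.3 and 22.4 CPM with NAPQI, against 24.2, 31 and 28 CPM in controls. Its NAPQI libraries were nearly equal and lay below every control (log2 fold change -0.31 ± 0.13, edgeR adjusted p = 0.502, 0.265 to 1 over the alternatives). Tyms lies on the minus strand of chromosome 5 from 30263200 to 30278615. Rrm2, the regulated subunit of ribonucleotide reductase, ranged from 13.9 to 19.1 CPM with NAPQI and from 13.7 to 24.5 CPM in controls (log2 fold change -0.20 ± 0.22).

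Mitotic genes showed no difference past the threshold at any step of division. Mki67, which encodes the Ki-67 protein that coats mitotic chromosomes and marks cycling cells, had 124, 114 and 120 CPM with NAPQI, against 112, 168 and 132 CPM in controls. Its NAPQI libraries were close together and control replicate 1 lay below all of them (log2 fold change -0.21 ± 0.13, edgeR adjusted p = 0.625). Top2a, the topoisomerase that untangles sister chromatids, ranged from 102 to 129 CPM with NAPQI and from 101 to 171 CPM in controls (log2 fold change -0.13 ± 0.17).

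The kinase that drives mitosis, Cdk1, had 57.3, 56.3 and 60.1 CPM with NAPQI, against 44.5, 77 and 68.2 CPM in controls. Controls lay on both sides of the NAPQI libraries (log2 fold change -0.13 ± 0.16, edgeR adjusted p = 0.828). Its partner Ccna2, cyclin A2, had 29.5, 31.6 and 30.5 CPM with NAPQI, against 30.2, 43.8 and 26.8 CPM in controls (log2 fold change -0.14 ± 0.16, edgeR adjusted p = 0.808). Without control replicate 2 the log2 fold change of Ccna2 was 0.10. The B cyclins Ccnb1 and Ccnb2 had log2 fold changes of -0.06 ± 0.15 and 0.03 ± 0.15.

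Mitotic kinases had small differences and wide intervals. Plk1, which acts at entry, centrosome maturation and cytokinesis, had a log2 fold change of -0.04 ± 0.21. Aurka of the spindle poles and Aurkb of the chromosomal passenger complex stood at -0.06 ± 0.19 and -0.08 ± 0.21. Birc5, which encodes survivin, another passenger protein, had 67, 67.5 and 80.5 CPM with NAPQI, against 61.6, 100 and 91 CPM in controls (log2 fold change -0.23 ± 0.15, edgeR adjusted p = 0.645). Of its controls, replicate 1 was the lowest of all libraries and replicate 2 the highest.

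Of the spindle checkpoint and kinetochore genes, Bub1 stood at 0.08 ± 0.11 and Bub1b, which encodes the checkpoint protein BUBR1, at -0.09 ± 0.15. The kinetochore motor gene Cenpe was at 0.06 ± 0.15 and Cenpf at -0.09 ± 0.12. For the spindle, Kif11, the motor that pushes the poles apart, stood at -0.01 ± 0.14 and Tpx2, an activator of aurora A, at -0.14 ± 0.17. At mitotic exit, Cdc20 had 38.8, 36.9 and 41.9 CPM with NAPQI, against 36.6, 51.4 and 42.9 CPM in controls (log2 fold change -0.15 ± 0.13, edgeR adjusted p = 0.721). Ube2c had 23.7, 25.3 and 30.1 CPM with NAPQI, against 19.5, 43.5 and 35.5 CPM in controls (log2 fold change -0.32 ± 0.23, edgeR adjusted p = 0.671). The controls of Ube2c spanned the NAPQI libraries, and its log2 fold change was -0.05 without control replicate 2 and -0.58 without control replicate 1.

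**Figure D3:**
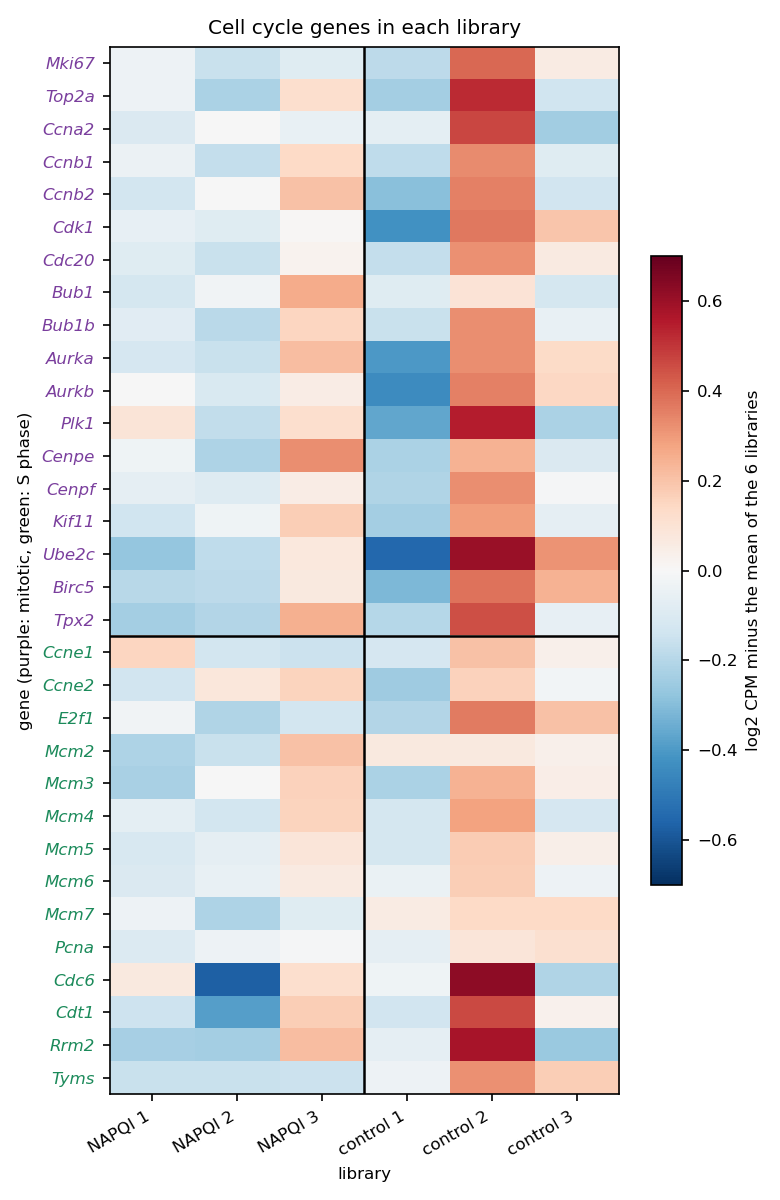
Each row is a gene and each column a library, coloured by log2 CPM minus the gene's mean over the 6 libraries, with NAPQI left of control and mitotic genes above S phase genes. Control replicate 2 is the reddest column, with a median deviation of 0.32, and control replicate 1 the bluest among mitotic genes.

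Control replicate 2 had the highest CPM of the 6 libraries for 27 of 32 genes (16 of 18 mitotic, 11 of 14 S phase), where it was highest for 15.6% of all tested genes. Control replicate 1 was lowest for 14 of 18 mitotic genes but for only 2 of 14 S phase genes, where it was lowest for 15.8% of all tested genes. Among NAPQI libraries, replicate 3 was highest for 3 genes (Bub1, Cenpe and Mcm2) and replicates 1 and 2 for 0. The median SD of a mitotic gene over replicates was 0.16 on the log2 scale with NAPQI and 0.34 in controls, that of an S phase gene 0.15 with NAPQI and 0.19 in controls, and that of all tested genes 0.14 with NAPQI and 0.18 in controls. Whether the controls vary more than the NAPQI libraries was not tested.

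Of the marker lists, only the surface epithelium had sums that shared their highest, second and lowest library with the summed cell cycle genes. It was singled out by that match. The 7 markers Upk3b, Upk1b, Krt19, Krt7, Krt8, Lgr5 and Msln summed to 436, 307 and 471 CPM with NAPQI, against 293, 611 and 347 CPM in controls. The 32 cell cycle genes summed to 1812, 1787 and 2064 CPM with NAPQI, against 1733, 2386 and 1956 CPM in controls. In both sums control replicate 2 was highest, NAPQI replicate 3 second and control replicate 1 lowest. Of the 7 markers, Upk3b, Krt19, Krt7 and Krt8 each had that order, and Upk1b, Lgr5 and Msln did not. The ranks between differed, with NAPQI replicate 1 above control replicate 3 in the marker sum and below it in the cell cycle sum. Summed germ cell markers also had NAPQI replicate 3 (2248 CPM) and control replicate 2 (2065 CPM) on top. None of the 7 markers was at 0, and Upk3b alone ranged from 60.3 to 148 CPM with NAPQI and from 32.8 to 194 CPM in controls. The part of these cells in the cell cycle values was not tested.

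**Figure D4:**
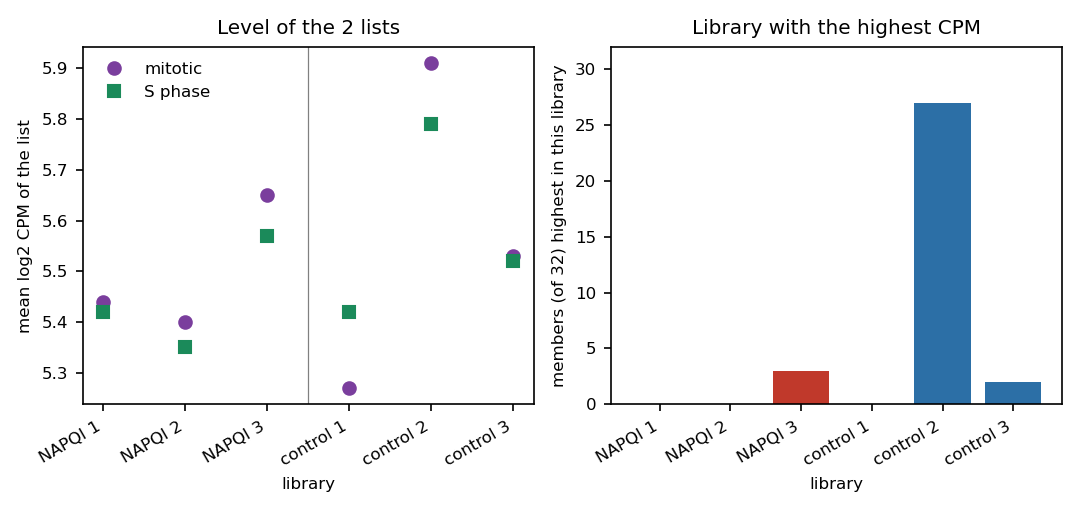
Left, mean log2 CPM of the 18 mitotic and the 14 S phase genes in each library. Right, how many of the 32 genes had their highest CPM in that library, with NAPQI libraries in red and controls in blue; control replicate 2 holds 27.

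S phase genes were then set against mitotic genes. Median log2 fold changes were -0.097 for the S phase genes, 13 of 14 negative, and -0.088 for the mitotic genes, 15 of 18 negative. The difference of the medians, S phase minus mitotic, was -0.009. By library, the mean log2 CPM of S phase genes was 5.42, 5.35 and 5.57 with NAPQI, against 5.42, 5.79 and 5.52 in controls. That of mitotic genes was 5.44, 5.40 and 5.65 with NAPQI, against 5.27, 5.91 and 5.53 in controls. Neither list separated the groups. The S phase mean minus the mitotic mean was -0.02, -0.05 and -0.08 with NAPQI, against 0.15, -0.12 and -0.00 in controls, so the NAPQI values lay inside the control range. Without control replicate 2 the median was 0.012 for S phase genes, with 6 of 14 negative, and 0.105 for mitotic genes, with 4 of 18 negative. Without control replicate 1 the median was -0.154 for S phase genes and -0.224 for mitotic genes, with 31 of the 32 genes negative.

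Ratios between paralogs, or between genes of a shared task, overlapped between the groups. The FPKM ratio of Ccnb2 to Ccnb1 was 7.67 ± 0.667 with NAPQI and 7.18 ± 0.329 in controls (SD, n = 3 each). That of Ccne2 to Ccne1 was 1.23, 1.74 and 1.85 with NAPQI, against 1.37, 1.46 and 1.44 in controls. The Bub1 to Bub1b ratio was 2.37 ± 0.182 with NAPQI and 2.13 ± 0.218 in controls, and that of Aurka to Aurkb 1.79 ± 0.183 with NAPQI and 1.79 ± 0.0481 in controls. Groups overlapped in all 4 ratios.

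Other genes of the pathway were read from 8 further lists, in each of which 0 genes had an adjusted p under 0.05 by edgeR or DESeq2. At an unadjusted p under 0.05 the lists held 0 to 2 genes each, beside 9.24% of all tested genes. Their medians ran from -0.113 for the 12 genes of nucleotide supply and chromatin assembly to 0.05 for the 25 other genes of spindle and cytokinesis, and these values turned on single libraries. With each library left out in turn, the nucleotide and chromatin median ran from -0.202 to -0.009 and the spindle and cytokinesis median from -0.031 to 0.187. In the spindle and cytokinesis list 7 of 25 were negative, beside 52.6% of tested genes. The count of negative genes in it was 17 without NAPQI replicate 3, 14 without control replicate 1, 15 without control replicate 3 and 0 without control replicate 2. Kif20a and Kif14, motors of cytokinesis, had log2 fold changes of 0.30 ± 0.17 and 0.22 ± 0.15. The 23 other kinetochore and checkpoint genes had a median of -0.057, which ran from -0.106 to 0.062 with a library left out. Knl1, the scaffold that recruits BUB1, had 18.1, 20.9 and 20.4 CPM with NAPQI, against 15.8, 16.3 and 12.5 CPM in controls, with every NAPQI library above every control (log2 fold change 0.41 ± 0.15, edgeR adjusted p = 0.44). Knl1 was the only 1 of these 23 genes whose groups did not overlap, beside 14.4% of all tested genes. Mis12, of the same outer kinetochore network, was at 0.32 ± 0.13 with overlapping groups.

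The 41 other replication genes had a median of -0.025, which ran from -0.055 to 0.066 with a library left out. Of the origin recognition complex, Orc6 had 45.2, 44.5 and 39.6 CPM with NAPQI, against 50, 55 and 54.8 CPM in controls (log2 fold change -0.30 ± 0.10, edgeR adjusted p = 0.412). Orc4 had 85.7, 83.1 and 85.7 CPM with NAPQI, against 69.4, 77.4 and 75.6 CPM in controls (log2 fold change 0.19 ± 0.09, edgeR adjusted p = 0.528). In neither gene did the groups overlap, and neither passed the threshold. The other subunits Orc1, Orc2, Orc3 and Orc5 had log2 fold changes of -0.10, 0.01, -0.13 and 0.12, and differences between subunits were not tested. Orc5 also had groups that did not overlap, at 54.1, 52.4 and 51.3 CPM with NAPQI, against 48.1, 48.6 and 48.1 CPM in controls. In this list 4 of 41 genes, Orc4, Orc5, Orc6 and Pold1, had groups that did not overlap, beside 14.4% of all tested genes. Chaf1b and Slbp belong to the nucleotide and chromatin list, where Chaf1b was the only 1 of 12 genes without overlap. Chaf1b, a subunit of the histone chaperone that follows the fork, had 11.9, 15.8 and 17.6 CPM with NAPQI, against 18.6, 21.7 and 20.4 CPM in controls (log2 fold change -0.42 ± 0.17, edgeR adjusted p = 0.457). Slbp, which binds the stem-loop of histone mRNA, was at -0.22 ± 0.10. Of the 41 other replication genes, Fen1 had the highest log2 fold change, 1.14 ± 0.57. It was named after its values were seen, at only 0.351 to 1.93 CPM over the libraries.

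No upstream control gene passed the threshold, but some intervals were wide. The 95% interval was -1.66 to 0.81 for Cdkn2b and -1.03 to 0.36 for E2f7. The 12 genes of G1 cyclins and kinases had a median of -0.027 (-0.068 to 0.015 with a library left out), with Cks1b at -0.20 ± 0.11, Ccnd2 at 0.19 ± 0.11 and Ccnd1 at 0.21 ± 0.33. Among 13 CDK inhibitors and pocket proteins, with a median of -0.075, Cdkn1a (p21) had 21.3, 16.8 and 23.5 CPM with NAPQI, against 25, 24.6 and 23.2 CPM in controls (log2 fold change -0.24 ± 0.15, edgeR adjusted p = 0.621). NAPQI replicate 3 lay above the lowest control. Rbl2 (p130), which holds cells in quiescence, was at -0.20 ± 0.12. Of 11 tested E2F and DREAM regulators, Foxm1, the activator of mitotic genes, was at -0.06 ± 0.13, E2f3 at 0.15 ± 0.12 and Lin52, a MuvB subunit, at 0.41 ± 0.18 (edgeR adjusted p = 0.521). The groups did not overlap for 1 gene of each of these lists, Cdk2, Rbl2 and Lin52, beside 14.4% of all tested genes. The 22 other genes of mitotic entry and exit had a median of -0.023 (-0.052 to 0.027 with a library left out), with Pttg1 (securin) at -0.35 ± 0.18 and Cdc27, a subunit of the anaphase-promoting complex, at 0.23 ± 0.10.

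**Figure D5:**
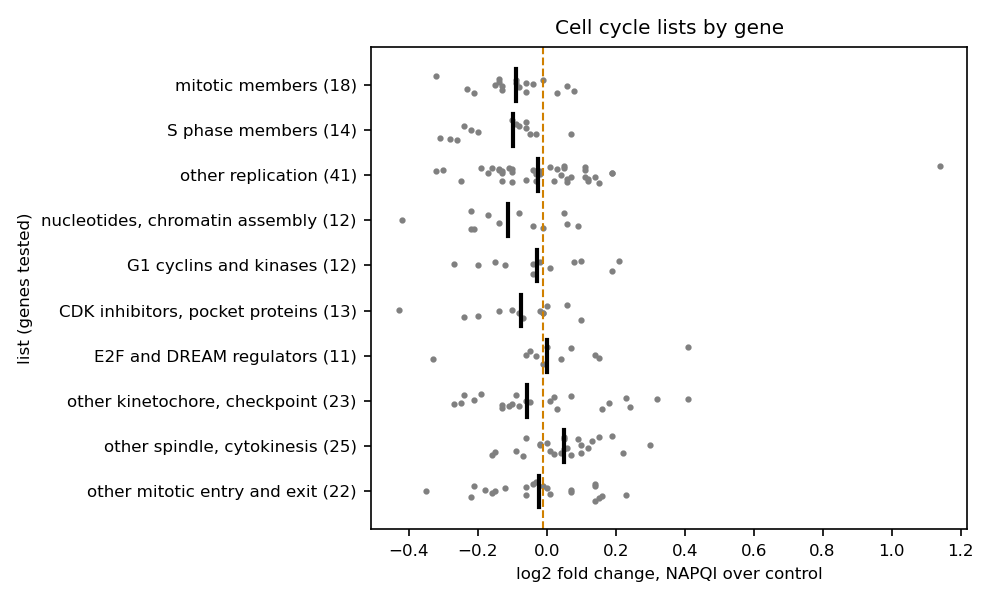
Log2 fold changes of NAPQI over control for the tested genes of each cell cycle list (grey points), with the list's median (black bar) and the median of all tested genes, -0.011 (dashed line). The medians lie between -0.113 and 0.05.

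The tissue held the cell types its label implies. Germ cell markers (12 genes, among them Ddx4, Dazl and Sycp3) summed to 1791 to 2248 CPM with NAPQI and 1819 to 2065 CPM in controls, and pregranulosa markers (10 genes, among them Foxl2 and Wnt4) to 2524 to 2798 CPM with NAPQI and 2553 to 3043 CPM in controls. Of 10 tested germ cell markers 7 were positive and 3 negative in sign, with a median of 0.067. The negative ones were Rec8, Dppa3 and Figla. Rec8 was at -0.51 ± 0.16 (edgeR adjusted p = 0.364). Its NAPQI libraries all lay below its controls, as did those of 7.13% of tested genes. Stroma markers were lower in sign for 8 of 8 genes, with a median of -0.301 and 6 lower at an unadjusted p under 0.05, beside 52.6% of tested genes negative and 5.03% lower at that p. They summed to 2652 to 3764 CPM with NAPQI and 3668 to 4136 CPM in controls. Macrophage markers were also lower in sign for 8 of 8, summing to 70.2 to 81.8 CPM with NAPQI and 80.9 to 114 CPM in controls. Endothelial markers summed to 180 to 215 CPM with NAPQI and 163 to 231 CPM in controls. Erythroid markers summed to 21.9 to 69.1 CPM with NAPQI and 30.1 to 204 CPM in controls, where Hba-a2, a near copy of Hba-a1, was listed at 0. The 204 CPM came from control replicate 3 alone, against 34.8 and 30.1 CPM in control replicates 1 and 2. Of 5 tested erythroid markers 5 were negative in sign, with a median of -1.114. So were 6 of 10 pregranulosa, 5 of 8 endothelial and 5 of 7 surface epithelium markers. In these lists 0 genes had an adjusted p under 0.05 by edgeR or DESeq2, and the part of any of these cells in the cell cycle values was not tested.

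In the authors' deposited table all 32 genes were listed, 28 with a negative log2 fold change, and 0 had an adjusted p under 0.05, against 0.124% of the genes in it. An unadjusted p under 0.05 was given there for 0 of 32, against 4.63% of its genes. The authors' deposited table gives Tyms a log2 fold change of -0.31 (p = 0.053, adjusted p = 1) and Mcm7 one of -0.22 (p = 0.0704, adjusted p = 1). Some counts may include reads of other loci, since no source used here gives the strand setting of the counting. On opposite strands Ccna2 overlaps Exosc9 by 863 bases, Cdc20 overlaps Elovl1 by 53 bases and Ube2c overlaps Tnnc2 by 1662 bases. Cdt1 overlaps Galnt2l on the same strand by 5540 bases, the whole span of Cdt1, whatever the strand setting. Named pseudogenes exist for Ccnb1, Ccnb2, Pcna and Tyms. These 5 are not among the 21898 genes with counts, so they were not analysed here.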

How the data were processed

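Counts came from 6 RNA libraries grouped by their titles, 3 per group. Raw read counts for each gene, not normalized per the file headers, were deposited by the authors. The deposited FPKM values equal the count per kilobase of the length listed there and per 1e+06 counted reads, and were used only to compare levels between genes. Per the submitters' processing notes, HISAT2 2.0.5, HTSeq 0.9.1 and FastQC 0.11.8 were used on build GRCm39. No source used here gives settings or strand use. A second table is the authors' comparison, with, per the file headers, mean normalised counts (a signal per group), their ratio, its log2 value and p-values. An empty line (1 per table) was left out.

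The whole table was fitted in R 4.3.3 with edgeR 4.0.16: filterByExpr with a minimum count of 10 (14736 of 21898 genes), TMM scaling and the two-sided quasi-likelihood F-test, adjusted by Benjamini-Hochberg over all tested genes, threshold 0.05. Intervals are 95% intervals of that fit. In an exact permutation test 3 libraries against 3 cannot give a p under 0.1. Depth was 13879347 to 17258609 counts per library. On the first principal component, with 33.47% of the variance, control replicate 3 stood farthest out, at -35.68 (other libraries -14.93 to 26.35). Across genes, its deviation had a Spearman correlation with length of -0.3 (other libraries -0.0986 to 0.167).

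The members and lists were chosen with earlier results of these data known, so lists are described by counts and medians without a set test. Values in every library are given for the 5 genes of each phase with the smallest p and for Mki67, Cdk1, Pcna and Mcm2; of each other list the 2 genes with the smallest p are named, with Cdkn1a, Ccnd1 and Foxm1. Lin54 of the regulator list was not analysed here. Alternatives were 2 other scalings, 2 other filters, the Wald test of DESeq2 1.42.0, the replicate number as a block, removal of each library's length trend (lowess, span 0.3), both together, and each library left out in turn. The gene test and the length correction were tested on simulated counts. Promoter windows are RefSeq's, on GRCm38.p6. Python 3.11.15 with matplotlib 3.10.9 drew the figures.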

Additional observations from a re-analysis of the deposited data

How the results depend on the processing

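No cell cycle gene passed the threshold under any of the 14 alternatives, and the smallest adjusted p among them was 0.18. Of the 32 genes, 10 kept their sign in all 14 (Mki67, Cdc20, Ube2c, Birc5, E2f1, Mcm2, Mcm7, Pcna, Cdt1 and Tyms). Leaving out control replicate 2 changed the sign of 18 genes, and leaving out any other library that of 1 to 5. Over the 6 fits that each leave out a library, the log2 fold changes of the genes that changed sign ranged as follows: Aurka -0.24 to 0.11, Aurkb -0.27 to 0.11, Bub1 -0.03 to 0.17, Bub1b -0.18 to 0.07, Ccna2 -0.28 to 0.10, Ccnb1 -0.15 to 0.12, Ccnb2 -0.09 to 0.25, Ccne1 -0.18 to 0.01, Ccne2 -0.03 to 0.18, Cdc6 -0.44 to 0.02, Cdk1 -0.32 to 0.05, Cenpe -0.10 to 0.21, Cenpf -0.19 to 0.08, Kif11 -0.12 to 0.16, Mcm3 -0.16 to 0.07, Mcm4 -0.12 to 0.12, Mcm5 -0.13 to 0.02, Mcm6 -0.11 to 0.02, Plk1 -0.20 to 0.31, Rrm2 -0.36 to 0.10, Top2a -0.26 to 0.15, Tpx2 -0.31 to 0.09. Signs also changed for Kif11 with library size alone (0.02), for Plk1 with the replicate block (0.02), with the length trend removed (0.03) and with both (0.09), and for Aurka with both (0.01). The medians of the mitotic genes ranged from -0.224 to 0.105 and of the S phase genes from -0.186 to 0.012 with a library left out, and the difference of the medians from -0.093 to 0.07. The median of the E2F and DREAM regulators ranged from -0.027 to 0.162 in these fits. The count of all genes past the threshold, 12, was 48 without a low-count filter, 75 by DESeq2, 1 with the replicate block, 2 with the block and the length trend removed, and 1 to 58 with a library left out (58 without control replicate 2, 25 without NAPQI replicate 2, and 1 each when NAPQI replicate 1, NAPQI replicate 3 or control replicate 3 was dropped). The cause of these shifts was not tested. Same-numbered libraries had correlations of deviations from their group means of 0.061, -0.178 and -0.0513. Differently numbered libraries ran from -0.178 to 0.212. Deviations from a mean of 3 libraries depend on each other, so these values cannot tell whether the numbers pair the samples. The replicate block called 0 of 32 genes, with a median of -0.077 for mitotic and -0.102 for S phase genes. The 32 genes had at least 82 counts in every library, and Cdc6, the gene with the fewest, had the largest standard error, 0.27.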
